A study of Mus musculus with 6 samples.

Results

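Epithelial junction and adhesion genes were examined in mouse embryonic stem cells with and without glycogen synthase kinase-3 (Gsk-3). The 41 genes encode claudins, other tight junction proteins, cadherins and catenins, desmosome proteins, connexins, polarity proteins, the Esrp splicing factors, and regulators and a marker of the epithelial-mesenchymal transition (EMT). They were chosen by name, as every probe set annotated to exactly 1 gene of that list, which gave 96 of the 45101 probe sets on the array and 41 of 18194 annotated genes. The list, like the other gene lists below, was drawn up with earlier results of these data known. Its counts and medians beside those of all genes are therefore descriptive and not an independent test. Total RNA from 3 DKO samples (Gsk-3a-/-; Gsk-3b-/-) and 3 wild-type samples (E14K) was hybridised to Affymetrix expression arrays. Both genotypes were cultured without feeder cells on gelatin, in 15% serum with leukaemia inhibitory factor at 1000 units/ml, and received no other treatment that the labels name. Because genotype is the only labelled difference, the loss of Gsk-3 and other differences between the lines cannot be told apart, and whether replicates were separate cultures is not stated, so the p-values reflect only how far these samples spread, perhaps for technical reasons.

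In a polarised epithelium, tight junctions seal the space between cells, with claudins and occludin spanning the membrane and the Tjp proteins and cingulin joining them to actin. Adherens junctions hold cells together through cadherins bound to catenins, desmosomes anchor intermediate filaments, and connexins form gap junction channels. Embryonic stem cells grow as compact colonies held by E-cadherin (Cdh1). Snail and Zeb proteins are zinc-finger repressors of Cdh1 and other epithelial genes, while Esrp1 and Esrp2 direct epithelial patterns of alternative splicing.

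Of the 41 genes, 33 had a probe set bright enough to test, meaning a log2 intensity of at least 4 on at least 3 of the 6 arrays. A gene bright in 1 genotype alone can pass this filter, so counts and medians over the 33 describe the tested members and not all 41. Each gene was read on its brightest tested probe set, and the genotypes were compared with limma, with Benjamini-Hochberg adjustment over all 20841 tested probe sets. Of the 33 genes, 3 fell (Zeb2, Esrp1 and Cldn6), 0 rose and 30 did not pass an adjusted p of 0.05. Among all 10496 tested genes 2.5% fell and 1.64% rose. At an unadjusted p under 0.05, 5 members were lower and 0 higher (15.2% of the 33), where 7.77% of all genes were lower, 6.92% higher and 14.7% either, so the share in either direction lay near the background. Without variance moderation 0 members passed in either direction. The median log2 difference of the 33 was -0.19, against -0.0025 over all genes tested, and 25 of them had a difference below 0, as had 5276 of all 10496. When replicate number entered the limma model as a block, 6 members were lower and 0 higher, where 5.63% of all genes were lower and 5.07% higher. The 3 added by the block were Cgn, Cldn7 and Crb3. The 3 DKO arrays lay below the 3 wild-type arrays in 4 of the 33 genes (12.1%; Zeb2, Esrp1, Cldn6 and Cgn), and above them in 0. Over all genes these shares were 10.4% below and 8.49% above, so the share of members without overlap lay near the background.

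**Figure D1:**
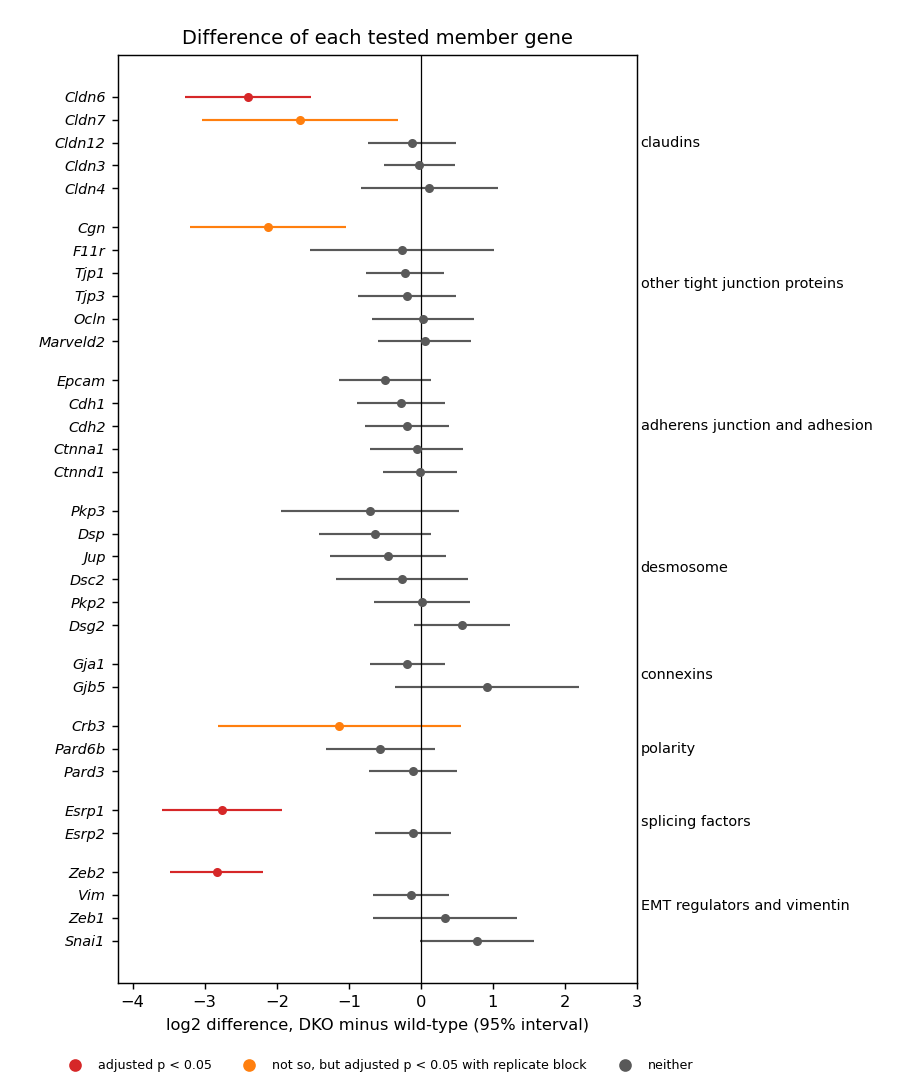
Log2 difference (DKO minus wild-type, x axis) of the 33 tested member genes, grouped by role, with the 95% interval of the moderated limma fit (n = 3 per genotype). Zeb2, Esrp1 and Cldn6 passed an adjusted p of 0.05, and Cgn, Cldn7 and Crb3 missed it but passed when replicate number was a block, as Cgn also did under other alternatives. The intervals of Zeb2, Esrp1, Cldn6, Cgn and Cldn7 lie below 0, and every other interval includes 0.

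Some properties of the arrays touch these values. Median intensities were 10 to 11 on all arrays, and no pair of arrays shared more than 1.79% of exact values among tested probe sets. Spike-in control probe sets averaged a log2 signal of 9.50 and 9.91 on replicate 3 of DKO and wild-type and 1.73 to 1.85 on the remaining arrays. The labels name no batch, so an alternative model only set replicate 3 of both genotypes apart by this signal (called the spike-in block here). The log2 ratio of 3' to 5' control probe sets, a sign of RNA length, did not shift one way. For Gapdh it averaged 0.43 ± 0.25 (DKO) and 0.18 ± 0.20 (wild-type; SD, n = 3), and for pyruvate carboxylase 1.04 ± 0.17 and 1.70 ± 0.27. The genotypes overlapped for Gapdh, actin and the transferrin receptor, and not for pyruvate carboxylase. The part of RNA length in the results was not tested. The probe set of Gsk3a was lower in DKO, at 6.77 ± 0.63 against 8.15 ± 0.44, without passing (adjusted p = 0.0942 by limma; 0.00646 with the replicate block), and none of the 5 tested probe sets of Gsk3b passed by limma. Where these probe sets lie relative to the deletions is not known here. All 10 stem cell markers had mean log2 intensities of at least 4 in both genotypes, and 0 passed by limma, with or without the replicate block. Without overlap, 3 were lower in DKO (30%, against 10.4% of all tested genes) and 1 higher. These were Tdgf1 (-0.38), Lin28a (-0.31) and Dnmt3l (-0.35), and Esrrb (0.46).

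Zeb2, a zinc-finger repressor of epithelial genes, had the largest fall among the members. Its one tested probe set (1434298_at) read 5.04, 5.21 and 5.64 on the DKO arrays and 8.15, 8.50 and 7.75 on the wild-type arrays. The genotypes did not overlap, and every DKO array lay more than 2 log2 units below every wild-type array. The mean was 5.30 ± 0.31 (DKO) against 8.13 ± 0.38 (wild-type; SD, n = 3), a 7.13-fold fall (log2 difference -2.83, SE 0.28, adjusted p = 0.000988 by limma). The differences within same-numbered pairs were -3.11, -3.29 and -2.10. The fall passed whichever of the 6 arrays was left out, with adjusted p-values of 0.000954 to 0.0174. The other 4 probe sets of Zeb2 were dim and not tested. One of them, 1456389_at, read 1.58, 2.00 and 1.58 in DKO and 3.00, 3.46 and 2.32 in wild-type cells, also without overlap but far under the filter.

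Zeb1, the other Zeb protein, did not pass. It read 9.79, 10.06 and 8.82 in DKO and 9.80, 9.48 and 8.38 in wild-type cells, with replicate 3 the lowest in both genotypes. The log2 difference was 0.34 (95% interval -0.66 to 1.33, adjusted p = 0.862 by limma). Relative to Zeb1 on the same array, Zeb2 was lower in DKO by a log2 ratio of -3.17, and all 3 DKO arrays lay on one side. The exact two-sided permutation p was 0.1, the smallest that 3 against 3 arrays can give, for a pair chosen with both results known. Snai1 (Snail), a repressor of Cdh1, stayed near the filter at 3.81, 4.46 and 5.13 in DKO and 4.0, 3.46 and 3.58 in wild-type cells. Its log2 difference of 0.78 had an interval of -0.01 to 1.58 (adjusted p = 0.39). Vim, the intermediate filament protein vimentin and a mesenchymal marker, read 12.17 ± 0.20 and 12.31 ± 0.15. Its 3 probe sets differed by -0.30 to -0.14 and none passed.

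Esrp1, an RNA-binding protein that promotes epithelial splicing, fell as well. Its probe set (1454681_at) read 7.48, 6.29 and 6.85 on the DKO arrays and 9.42, 9.29 and 10.18 on the wild-type arrays. The groups did not overlap, with replicate 2 the lowest in both, and the same-numbered pairs differed by -1.94, -3.0 and -3.34. The mean fell from 9.63 ± 0.49 to 6.87 ± 0.60 (SD, n = 3), 6.78-fold (log2 difference -2.76, SE 0.37, adjusted p = 0.00396 by limma). Leaving out any single array kept the call, at adjusted p-values of 0.00685 to 0.022, and testing with no filter on low values lost it (0.0825).

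The probe sets of Esrp2, its paralogue, differed from one another. The brighter (1419977_s_at) read 9.90 ± 0.17 (DKO) against 10.01 ± 0.19 (wild-type), a log2 difference of -0.11 (95% interval -0.64 to 0.42). The dimmer (1433683_at) read 6.13, 5.93 and 7.23 in DKO and 5.32, 5.0 and 5.75 in wild-type cells. These groups did not overlap, and the log2 difference of 1.07 did not pass (adjusted p = 0.227 by limma; 0.0145 with the replicate block and 0.0336 with the spike-in block). The 2 probe sets gave Esrp2 no common direction. Relative to the brighter Esrp2 probe set, Esrp1 was lower in DKO by a log2 ratio of -2.65. The exact two-sided permutation p was 0.1, the smallest possible, for a pair chosen with both results known. No ratio to the dimmer Esrp2 probe set was taken.

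**Figure D2:**
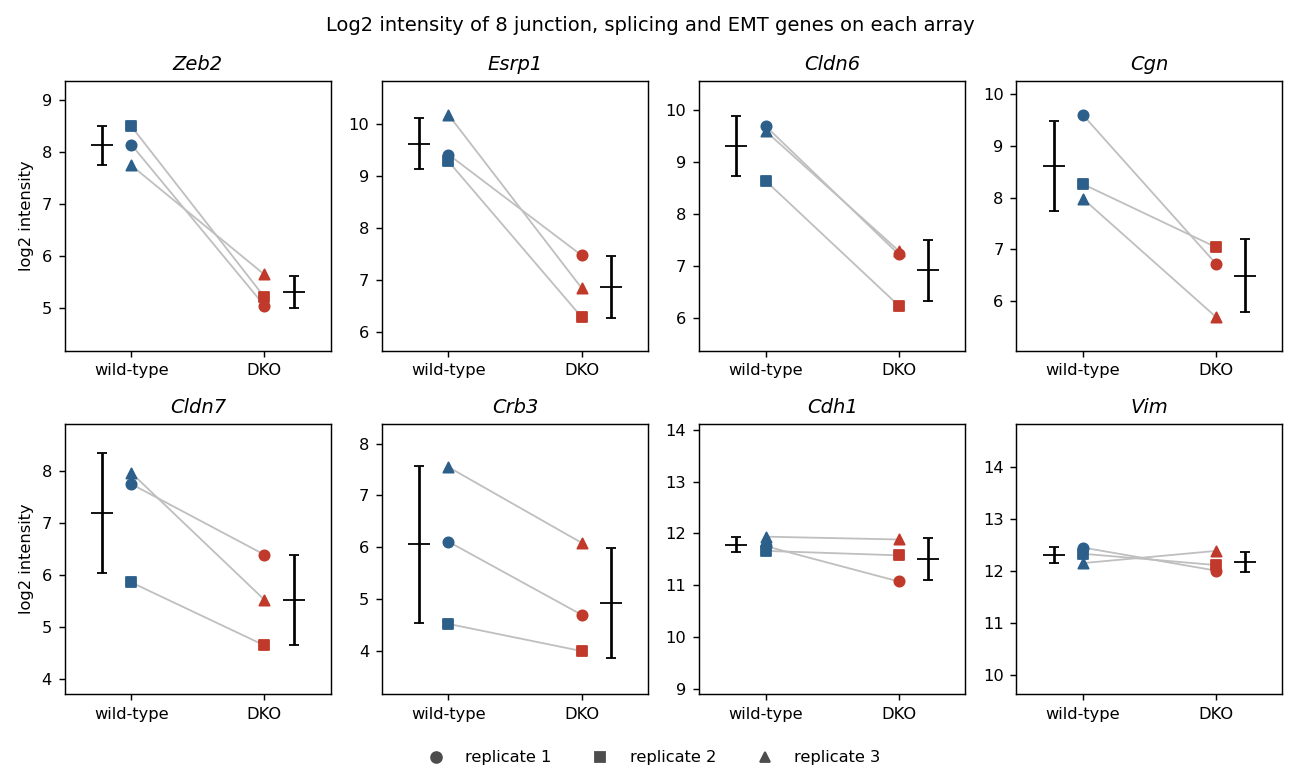
Log2 intensity (y axis, the same span in each panel) of 8 genes on each array by genotype, with same-numbered arrays joined and mean ± SD (n = 3) beside the points. Zeb2, Esrp1, Cldn6 and Cgn separate the genotypes, Cldn7 and Crb3 overlap between genotypes but are lower in DKO in each joined pair, and Cdh1 and Vim stay within 1 log2 unit.

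Among the claudins, which set the permeability of tight junctions, Cldn6 fell, and the other 4 tested genes did not pass. Cldn6 is a claudin of the early embryo and of pluripotent cells. It read 7.22, 6.23 and 7.29 in DKO and 9.69, 8.64 and 9.60 in wild-type cells (1417845_at). The lowest wild-type array lay above the highest DKO array, and replicate 2 was the lowest of each genotype. The log2 difference was -2.40 (SE 0.38, 5.27-fold, adjusted p = 0.0112 by limma), and the same-numbered pairs gave -2.47, -2.41 and -2.31. The call was lost without DKO replicate 1 (adjusted p = 0.0683) and with no filter on low values (0.138), and held when any other single array was left out.

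Cldn7 showed the same order in each pair with more spread. It read 6.39, 4.64 and 5.52 in DKO and 7.75, 5.86 and 7.97 in wild-type cells. The groups overlapped, since wild-type replicate 2 lay below DKO replicate 1. The log2 difference of -1.67 (SE 0.60) did not pass by limma (adjusted p = 0.244) but passed with the replicate block (adjusted p = 0.00381). Cldn12 was bright and close in both genotypes (10.70 ± 0.29 against 10.82 ± 0.32), with an interval of -0.73 to 0.49. Cldn3 and Cldn4, claudins of many epithelia, lay near the filter at 4.32 ± 0.07 against 4.34 ± 0.11 and 3.91 ± 0.39 against 3.79 ± 0.85. Cldn1, Cldn2, Cldn5 and Cldn9 were not tested. The highest value on any array was 3.58 for Cldn1, 2.00 for Cldn2 and 2.81 for Cldn5. Cldn9, next to Cldn6 in the RefSeq gene order of chromosome 17, exceeded the filter on 2 arrays, reaching 6.04 on wild-type replicate 1. Tnfrsf12a, a cytokine receptor on the other side of Cldn6, had a log2 difference of -0.83 and did not pass (adjusted p = 0.327).

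Cgn, which encodes cingulin at the cytoplasmic face of tight junctions, missed the threshold narrowly. It read 6.73, 7.04 and 5.70 in DKO and 9.60, 8.26 and 7.98 in wild-type cells (1435155_at), without overlap. The log2 difference was -2.12 (SE 0.48, 95% interval -3.21 to -1.04, adjusted p = 0.0508 by limma). It passed under 8 of 19 alternatives, among them the replicate block (adjusted p = 0.00189), the spike-in block (0.00836) and the fit without wild-type replicate 3 (0.0297). Without any other single array it did not pass, up to an adjusted p of 0.198. The remaining tight junction genes did not pass. Tjp1 (ZO-1), the main scaffold, read 11.10 ± 0.26 and 11.32 ± 0.09 (95% interval of the log2 difference -0.76 to 0.32). Ocln (occludin) differed by 0.03 on its brighter probe set and 0.29 on the other, and Marveld2 (tricellulin) by 0.05. F11r, the junctional adhesion molecule JAM-A, followed the replicate number more than the genotype: the DKO arrays gave 6.61, 6.60 and 8.39, the wild-type arrays 6.94, 6.98 and 8.48. Tjp3 lay near the filter (3.97 ± 0.37 against 4.16 ± 0.39), and Marveld3 was not tested.

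Of the adherens junction and adhesion genes none of the 5 tested passed by limma, with or without the replicate block, and on the probe set that stands for the gene 0 had an unadjusted p under 0.05. Cdh1 (E-cadherin) read 11.07, 11.58 and 11.88 in DKO and 11.76, 11.66 and 11.94 in wild-type cells. Only DKO replicate 1 lay clearly below the rest, and the log2 difference was -0.27 (95% interval -0.89 to 0.34). Cdh2 (N-cadherin), the cadherin of neural and mesenchymal cells, differed by -0.19 on its brighter probe set (9.0 ± 0.33 against 9.20 ± 0.19) and by 0.23 on the other. Epcam, an epithelial adhesion glycoprotein, differed by -0.49 (interval -1.13 to 0.14) and by -0.02 on its dimmer probe set. Ctnnd1 (p120-catenin), which stabilises cadherins at the membrane, differed by -0.02 (interval -0.53 to 0.50), and by -0.29 and 0.07 on its other probe sets.

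Ctnna1 (alpha-catenin), the link between cadherins and actin, showed a disagreement between probe sets. Its bright pair read 11.90 ± 0.46 against 11.95 ± 0.18 and 11.41 ± 0.31 against 11.34 ± 0.16. A dim one (1436631_at) read 4.09, 4.39 and 5.46 in DKO and 5.13, 5.64 and 6.30 in wild-type cells. It was lower in DKO in each pair and passed only in blocked fits (log2 difference -1.05, adjusted p = 0.314 by limma, 0.0118 with the replicate block, 0.0388 with the spike-in block). Cdh3 (P-cadherin) and Ctnna2 were not tested.

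None of the 6 tested desmosome genes passed by limma, with or without the replicate block, and 0 had an unadjusted p under 0.05 on the probe set that stands for the gene. Dsg2, a desmosomal cadherin, had 6 tested probe sets with log2 differences of 0.39 to 1.44, all above 0. The brightest read 10.73, 11.12 and 11.11 in DKO and 10.96, 10.26 and 10.04 in wild-type cells, and DKO replicate 1 lay below its wild-type partner. The larger differences were on dimmer probe sets, and the genotypes did not overlap in those at 0.94 and 0.70. Those at 0.94 and 1.44 passed with the replicate block (adjusted p = 0.0301 and 0.0238 by limma) but not in the main fit. The one at 1.44 also passed, with no block, when wild-type replicate 1 was left out (adjusted p = 0.0484 by limma). Dsp (desmoplakin), which binds keratin filaments, had 2 tested probe sets, at -0.64 and -1.01. On the latter the groups did not overlap, at 8.91, 8.95 and 9.46 against 10.93, 9.53 and 9.89, and it did not pass (adjusted p = 0.261; 0.0734 with the replicate block). The plaque protein genes Jup (-0.46), Pkp2 (0.01) and Pkp3 (-0.70) and the cadherin gene Dsc2 (-0.26) did not pass, and Pkp1 was not tested. The other tested probe sets of Pkp2 lay at -0.15, -0.14 and -0.44, and none passed. The last of these (1460511_at) was lower in DKO without overlap but near the filter (3.97 ± 0.10 against 4.41 ± 0.35).

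**Figure D3:**
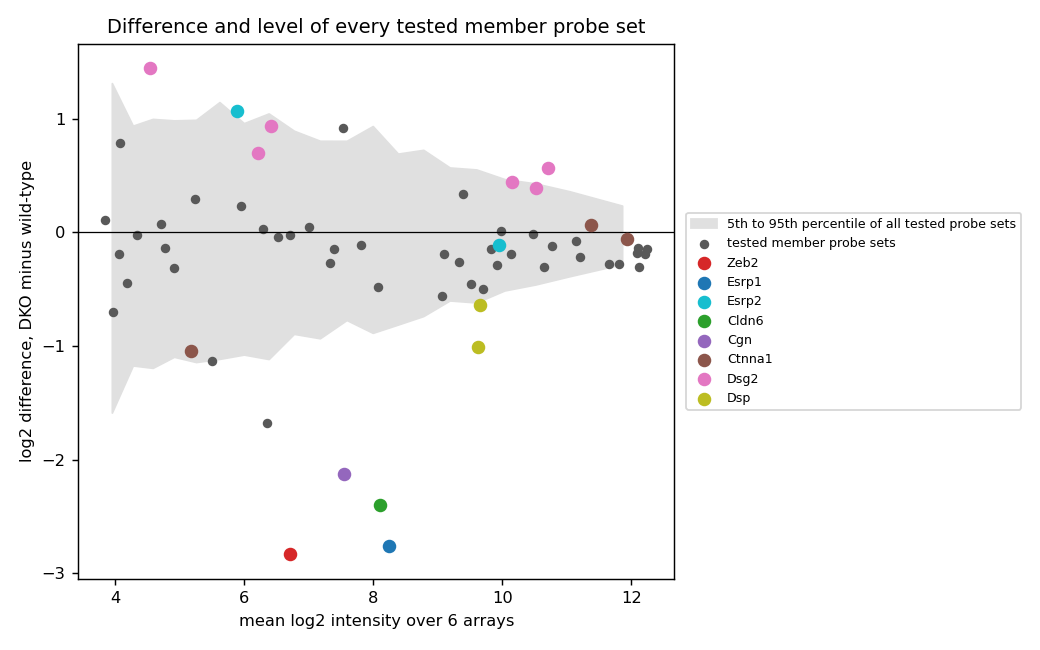
Log2 difference (DKO minus wild-type, y axis) against mean log2 intensity (x axis) for the 61 tested member probe sets, with the band from the 5th to the 95th percentile of all tested probe sets. Set against the percentiles of its own intensity bin, 10 of the 61 lie below (Zeb2, Esrp1, Cldn6, Cldn7, Cgn, Crb3, both of Dsp and 2 of Gja1) and 4 above (2 of Dsg2, Gjb5 and the dimmer of Esrp2), where the band leaves out 10% of all tested probe sets by construction.

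Counted by probe set, 3 of the 61 tested passed by limma (4.92%), all lower in DKO, where 3.24% of all tested probe sets passed in either direction. Of the 33 genes, 14 had more than 1 tested probe set, and in 9 of these all tested probe sets had the same sign. Neither gap junction gene passed. Gja1 (connexin 43), a widely expressed connexin, had 6 tested probe sets with log2 differences of -0.31 to -0.07. On 1438650_x_at the DKO arrays (11.75, 12.11 and 12.11) lay below the wild-type arrays (12.17, 12.20 and 12.14) without overlap. That log2 difference of -0.18 did not pass (adjusted p = 0.857 by limma). Gjb5, a connexin of trophoblast and skin, read 7.89, 6.75 and 9.31 in DKO and 6.79, 6.85 and 7.57 in wild-type cells. DKO replicate 2 lay below all wild-type arrays, and the difference of 0.92 had an interval of -0.36 to 2.19.

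Among the polarity genes, Crb3, a subunit of the apical Crumbs complex, had its replicates in the same order in both genotypes, with replicate 2 lowest and replicate 3 highest. It read 4.70, 4.0 and 6.09 in DKO and 6.11, 4.52 and 7.55 in wild-type cells. The genotypes overlapped, but each DKO array lay below its same-numbered partner, with differences of -1.41, -0.52 and -1.46. The log2 difference of -1.13 (SE 0.74) had an adjusted p of 0.641 by limma and of 0.018 with the replicate block, the one alternative that passed. Pard6b and Pard3, parts of the Par complex, differed by -0.56 and -0.11 and did not pass.

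Promoter sequence was available for 27 of the 41 members in RefSeq (GRCm38.p6), as 39 windows from 250 bases before to 50 after a start. The letters CACCTG, the E2-box that Snail and Zeb proteins are known to bind, were searched on both strands (CAGGTG on the other). At least 1 window held them in 15 of the 27 genes (55.6%), against 22.6% of all 27025 genes with a window. By window the shares were 48.7% for members and 20.2% for all. The median GC content was 60.3% in the members' windows and 52.7% in all, and its part in the difference was not tested. The Tcf/Lef letters CTTTGAA or CTTTGAT or CTTTGTA or CTTTGTT (either strand) occurred in 1 of the 39 windows (2.56%), that of Cldn4, against 16.9% of all. The Grainyhead letters AACNGGTT (either strand), bound by factors such as Grhl2, occurred in 2 windows, of Cgn and Cldn5 (5.13%, against 2.09% of all). These motifs do not overlap one another in the windows shown. A match describes letters and not a site in use, and Esrp1 had no entry. No window of Zeb2 (4 in all) held any of the searched letters, and that of Cgn held no E2-box. E2-boxes also occurred in members that passed neither with nor without the replicate block. Among them were F11r, Snai1, Pard6b, Cldn3, Cldn4, Tjp3, Dsp, Ocln, Marveld2 and Epcam. Whether the letters go with a fall in DKO was not tested.

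The windows below are those of the members lower in DKO by limma, with or without the replicate block, that hold the searched letters, in capitals: 2 E2-boxes in Cldn6 (chr17:23679115-23679414, plus strand), 2 in Cldn7 (chr11:69965171-69965470, plus strand, where its other window holds none), 4 in Crb3 (chr17:57061951-57062250, plus strand, the more upstream of 2 starts) and the Grainyhead letters in Cgn (chr3:94786433-94786732, minus strand), all GRCm38.p6 and 5' to 3'.
Cldn6: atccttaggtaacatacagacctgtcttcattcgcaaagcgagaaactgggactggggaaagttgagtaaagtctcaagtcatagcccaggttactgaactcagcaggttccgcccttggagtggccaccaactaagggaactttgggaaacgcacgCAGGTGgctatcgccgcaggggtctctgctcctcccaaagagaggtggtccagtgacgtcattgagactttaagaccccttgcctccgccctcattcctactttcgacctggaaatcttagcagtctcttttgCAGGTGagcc
Cldn7: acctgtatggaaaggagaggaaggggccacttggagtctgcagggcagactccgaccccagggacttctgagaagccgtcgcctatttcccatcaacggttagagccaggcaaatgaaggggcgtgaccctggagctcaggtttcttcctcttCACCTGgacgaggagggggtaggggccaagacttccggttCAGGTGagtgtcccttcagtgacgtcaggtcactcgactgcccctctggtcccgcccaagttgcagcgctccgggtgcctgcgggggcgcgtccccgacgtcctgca
Crb3: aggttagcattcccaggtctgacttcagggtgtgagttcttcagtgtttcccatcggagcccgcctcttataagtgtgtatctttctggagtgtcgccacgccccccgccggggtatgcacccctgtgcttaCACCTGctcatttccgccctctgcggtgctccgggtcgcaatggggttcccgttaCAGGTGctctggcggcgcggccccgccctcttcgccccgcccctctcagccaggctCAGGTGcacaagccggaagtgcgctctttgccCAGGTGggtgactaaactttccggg
Cgn: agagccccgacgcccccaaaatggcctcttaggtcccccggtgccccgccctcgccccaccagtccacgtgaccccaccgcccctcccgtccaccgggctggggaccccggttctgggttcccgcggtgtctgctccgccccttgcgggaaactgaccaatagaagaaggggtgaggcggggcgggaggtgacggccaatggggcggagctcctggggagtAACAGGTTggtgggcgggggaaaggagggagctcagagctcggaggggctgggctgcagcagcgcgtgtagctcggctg

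Other genes of the same structures were followed in 7 further lists, together 120 genes that are not members, of which 74 were tested. Of these 1 rose, 2 fell and 71 did not pass by limma, with a median log2 difference of -0.02. The 4.05% that passed lay near the 4.13% of all genes. At an unadjusted p under 0.05 the share was larger, with 10 higher and 7 lower (23.0% of the 74, against 14.7% of all genes). Without overlap, 12 of the 74 were higher in DKO, where 8.49% of all genes were, and 9 were lower (12.2%, against 10.4%). With the replicate block 6 were higher (8.11%, against 5.07% of all genes) and 5 lower (6.76%, against 5.63%). The replicate block added Ildr1 (log2 difference 2.06), Ctnnd2 (1.05), Panx1 (1.12), Spint1 (1.05) and Lad1 (1.54), higher in DKO, and Nectin3 (-0.84), Grhl1 (-0.80) and Acta2 (-1.90), lower. In the tight junction list 1 of 13 rose, Jam3, a junctional adhesion molecule. It read 7.09, 6.97 and 7.68 in DKO and 5.75, 5.88 and 5.17 in wild-type cells (log2 difference 1.64, SE 0.30, adjusted p = 0.0197). The call held without wild-type replicate 1 (0.0365) or wild-type replicate 3 (0.0497) and was lost without DKO replicate 1 (0.0888), DKO replicate 2 (0.0518), DKO replicate 3 (0.0527) or wild-type replicate 2 (0.0515). None of the 14 adherens junction, 4 desmosome, 2 connexin and pannexin and 14 polarity genes passed by limma, where 3, 1, 1 and 1 of them had an unadjusted p under 0.05 (14.7% of all genes had one). So had 3 of the 13 tight junction genes, 5 of 13 further epithelial genes and 3 of 14 further EMT and mesenchymal genes.

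Of 13 further epithelial genes 1 fell, Grhl2, a Grainyhead factor that activates junction genes. It read 6.54, 7.37 and 7.91 in DKO and 9.47, 9.0 and 10.03 in wild-type cells, without overlap. The log2 difference was -2.23 (SE 0.39, adjusted p = 0.0176), and it no longer passed without DKO replicate 1 (0.0877) or DKO replicate 2 (0.0725). Of 14 further EMT and mesenchymal genes 1 fell, Tagln (transgelin), an actin-binding protein of smooth muscle. It read 4.64, 3.81 and 4.0 in DKO and 7.21, 7.88 and 8.29 in wild-type cells (log2 difference -3.64, SE 0.34, adjusted p = 0.000826). In each list differences lay on both sides of 0: 7 of the 13 epithelial genes had a difference above 0 (median 0.27), as did 6 of the 14 EMT genes (median -0.04).

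**Figure D4:**
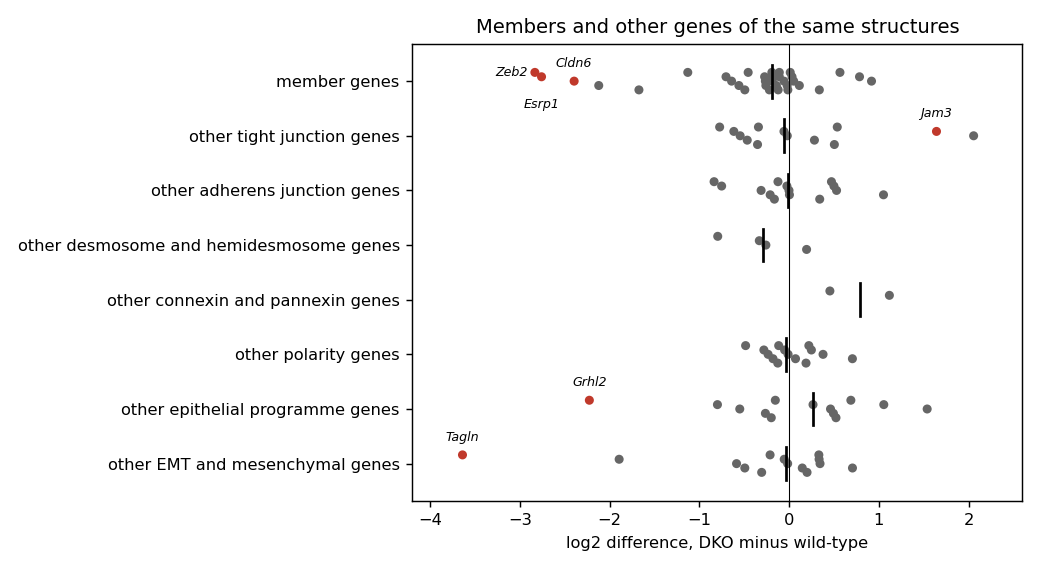
Log2 difference (DKO minus wild-type, x axis) of each tested gene in the member list and 7 other lists, with the list median as a vertical bar and genes that passed an adjusted p of 0.05 in red. Named points are the member genes Zeb2, Esrp1 and Cldn6 and the other genes Jam3, Grhl2 and Tagln.

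Markers of other cell types that could contribute junction transcripts were read beside these results. In bulk RNA, fewer cells of a type and less RNA per cell cannot be told apart. Of 10 fibroblast markers 6 had a mean log2 intensity of at least 4 in DKO and 5 in wild-type cells, with summed intensities of 1228 to 2088 and 761 to 1521, and Col3a1, Postn and Lum lay under the filter on every array. Of 10 trophoblast markers 4 and 5 did, with sums of 2681 to 5415 and 3383 to 4077. Elf5, Hand1 and Tpbpa were under the filter on every array, and Cdx2 rose by 4.09 (adjusted p = 9.71e-05 by limma). Eomes was higher in DKO and Tfap2c lower, both without overlap and without passing (1.24, adjusted p = 0.0787 by limma and 0.00734 with the replicate block; -0.89, adjusted p = 0.354). Col1a1, a fibroblast marker, was lower without overlap (-1.34, adjusted p = 0.0805 by limma and 0.00506 with the replicate block). The other 4 tested fibroblast markers went the other way, with overlap: Col1a2 (0.75), Thy1 (0.44), Pdgfra (0.62) and Col6a1 (0.94). Of these Col6a1 passed with the replicate block (adjusted p = 0.0469) and not without it (0.651 by limma). Of 10 primitive endoderm markers 8 had a mean of at least 4 in each genotype, and Afp and Ttr were under the filter. Their sums were 7195 to 9874 and 4921 to 9903, weighed most by the brightest, Sparc (12.07 in DKO and 12.09 in wild-type cells). Of the 8 tested, 5 had a difference above 0 and 3 below (median 0.81), and 0 passed by limma, with or without the replicate block. Gata6 (1.05) and Foxa2 (1.26) were higher in DKO without overlap, and Dab2 was lower with overlap (-1.45). The trophoblast sum was weighed most by Tfap2c in wild-type cells (11.70) and by Tfap2c and Cdx2 in DKO (10.81 and 10.76). Pdgfra weighed most in the fibroblast sum (10.25 in DKO and 9.63 in wild-type cells). A sum can thus hide single markers that moved in opposite directions, as Cdx2 and Tfap2c did. The ranges of the sums overlapped in each of these lists, which does not show that the markers were unchanged, and their part in the results was not tested.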

How the data were processed

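Expression was measured on 3 DKO and 3 wild-type arrays from 25 ng of total RNA each, grouped by sample title. The authors deposited 1 intensity per probe set and array as whole numbers (1 to 12861), with no stated scale; they were taken as linear and converted to log2 with no pseudocount, and rounding makes dim values coarse. The submitters' processing notes name limma 2.16.5, R 2.8.0, GCRMA 2.14.1 and GCOS, without roles, and no genome build is given in the sources used here. Precision is limited by the small number of arrays.

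Gene names came from the annotation of the platform, with symbols updated by RefSeq (GRCm38.p6). Of 45101 probe sets 34958 had 1 gene, 932 several and 9211 none. Non-control probe sets at log2 4 or more on 3 or more arrays were fitted (limma 3.58.1, lmFit and eBayes, R 4.3.3, two-sided, genome-wide Benjamini-Hochberg over 20841). Intervals are 95% intervals of the moderated fit. The procedure was tested on simulated data.

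Same-numbered arrays deviated together from the means of their genotypes (correlations 0.427, 0.354 and 0.595). By a rule of over 0.1 in every pair the numbers were taken to pair the samples. Of the differently numbered pairs, DKO replicate 2 with wild-type replicate 1 also exceeded 0.1 (0.113), and the rest lay below 0. What a number stands for is not given. For that reason the replicate number stayed out of the main model, which ignores this pairing. It was a block in one alternative, with 6 member genes lower in DKO against 3 in the main model. Members and lists were chosen with earlier results of these data known. Named genes are all members, every other listed gene that passed (up to 4 per list), and Gsk3a and Gsk3b; Cdx2, the other markers, the listed genes added by the replicate block and the neighbouring genes were named after their values were seen, as were the genes set in ratio to each other. Alternatives varied the filter, pseudocount, normalization, probe set choice, variance model, the spike-in block and arrays.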

Additional observations from a re-analysis of the deposited data

How the results depend on the processing

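Of the member genes 3 were lower in DKO and 0 higher by limma, and 0 were higher under every alternative run. The replicate block gave 6 lower genes, adding Cgn, Cldn7 and Crb3 and changing no other member gene's call, and among member probe sets 7 lower and 3 higher, against 3 and 0 without it. With the replicate block 6 of the other listed genes were higher and 5 lower, against 1 and 2. With replicate 3 set apart by its spike-in signal as a block 5 member probe sets were lower and 1 higher, and 3 other listed genes were higher. With no filter on low values 1 member gene (Zeb2), 1 member probe set and 0 other listed genes in the higher direction passed. With no variance moderation 0 members and 0 other listed genes passed in either direction; the adjusted p was 0.0851 for Zeb2, 0.151 for Esrp1 and 0.216 for Cldn6. When each array was left out in turn, lower member genes numbered 2 to 4, lower member probe sets 2 to 4, higher member probe sets 0 to 1, and other listed genes 0 to 2 higher and 1 to 2 lower. The remaining settings (filter at log2 6, pseudocounts, quantile normalization, centring, choice of probe set, variance trend, replicates 1 and 2 alone) kept the member counts at 3 or 4. The cause of these shifts was not tested. With 3 arrays per genotype, signal near the filter is coarse, since values were deposited as whole numbers, and 8 members too dim to test have no call.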

Other observations

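Some members followed the replicate number in both genotypes. In 8 of the 33 tested members (24.2%) replicate 2 was the lowest array in both genotypes, as in 16.7% of all tested genes. These were Cldn4, Cldn6, Cldn7, Ocln, Jup, Pkp3, Crb3 and Esrp1. Crb3 and Cldn7 deviated the most, with replicate 2 at -1.23 and -1.11 log2 units from the genotype means. F11r stood 1.10 above them in replicate 3, the array pair with spike-in signal, and Gjb5 0.91 and Crb3 1.32 above. Replicate 3 was the highest in both genotypes in 6 members (18.2%) and in 24.3% of all genes, and the lowest in 6 (18.2%, against 20.1%). Replicate 1 was the lowest in both genotypes in 1 member (3.03%, against 14.1% of all). What these numbers stand for was not tested.

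Genes next to the members that fell were read in the RefSeq order of protein-coding genes. Gtdc1 and Acvr2a, on either side of Zeb2 on chromosome 2, differed by -0.48 and -0.37 log2 units (adjusted p = 0.575 and 0.691 by limma). Dpy19l4 and Virma, beside Esrp1 on chromosome 4, differed by -0.27 and -0.12 (adjusted p = 0.828 and 0.942).

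Some dim member probe sets separated the genotypes without reaching the filter. One probe set of Cldn1 (1437932_a_at) read 1.00, 1.58 and 1.58 in DKO and 3.00, 3.58 and 2.58 in wild-type cells. In the other direction, one of Pard3 (1420391_at) read 3.70, 3.32 and 3.17 in DKO and 3.00, 2.81 and 3.00 in wild-type cells. At such values 1 unit of the deposited whole-number intensity moves the log2 value by a large step, and no test was made.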
